A study of Mus musculus with 6 samples.

Results

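The genes of the cytosolic ribosomal proteins were followed in RNA sequencing of mouse kidney. They were taken by name: gene symbols that start with Rps or Rpl and a digit, together with Rplp0, Rplp1, Rplp2 and Rpsa, without names that carry -ps, the S6 kinases (Rps6k) and Rps27l. The rule found 91 of the 51804 gene symbols in the deposited table. Of the 91, 77 are the main genes of the ribosomal subunits, 31 for the small and 46 for the large one. Of the other 14, 1, Rps19bp1, encodes a binding partner of Rps19 and not a subunit. The rest are paralogs or retrocopies with a gene name of their own.

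The 3 libraries labelled cko came from kidneys of Ccnb1f/f;Cdh16-Cre mice, and the 3 control libraries from Ccnb1f/f mice, so both groups carry the floxed allele of Ccnb1, the gene of cyclin B1. The Cdh16 promoter directs Cre to tubular epithelium, and the comparison asks what loss of cyclin B1 there does to the kidney, in a study of arrest between DNA replication and mitosis and of fibrosis. The sources used here give no age, strain or floxed exons, and the labels' extraction text speaks both of kidney and of cultured cells. Whether each replicate was a mouse of its own is not said either, and p-values therefore reflect the scatter of 6 libraries, which could be technical.

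A ribosome is built from ribosomal RNA and one copy of most ribosomal proteins, and a growing cell makes the proteins in step with one another. The mRNAs of these proteins are among the most abundant and shortest of a cell, and they begin with a C and a run of pyrimidines, the TOP motif (terminal oligopyrimidine). Through this motif the kinase complex mTORC1 and the RNA-binding protein Larp1 control how much of them is translated, so protein synthesis can change with little change in mRNA. Ribosomal protein genes have also left many processed pseudogenes in mammalian genomes, near-identical copies of the mRNA without introns.

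The libraries held 17306461, 16061435 and 21261226 estimated counts in cko and 17105650, 18597655 and 17677134 in control. Ccnb1 itself had 18, 15 and 11 counts in cko against 11, 17 and 7 in control. It was thus not lower in the cko libraries, and the groups are called by their labels throughout. Ccnb1 is a gene of dividing cells, and at this depth such low counts in whole kidney do not show whether the allele was recombined. Of 15017 genes tested, 2 passed an adjusted p of 0.05 in edgeR's quasi-likelihood test: Kap, with 0 counts in each of the 3 cko libraries and at least 172207 in each control library, and Mcm6, a subunit of the replicative helicase, with 297, 517 and 552 counts in cko and 31, 67 and 40 in control. Marker genes of proximal tubule summed to 17148 to 18371 CPM (counts scaled to the library total) in cko and 17473 to 19230 in control, the most of any kidney cell type listed, and no gene of the 12 marker lists was at 0 in every library.

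The start regions of the ribosomal protein genes carried the TOP motif more often than genes in general. Of the 77 main genes, 57 had an entry among the RefSeq promoter sequences (GRCm38.p6). A C at the annotated start followed by at least 4 pyrimidines was found in 13 of the 57 (22.8%), against 3.01% of 27025 genes. A C followed by at least 7 pyrimidines anywhere in a window around the start was found in 45 (78.9%), against 22.7% of all genes. This wider search does not show that the run found is the TOP tract. The letters CTCTTTC, searched on both strands, were present in 18 (31.6%) against 9.28%, and CCGGAAG, a core of Ets factor sites, also on both strands, in 24 (42.1%) against 9.93%. The letters AAGATGGC, a core of YY1 sites, were present on either strand in 5 (8.77%) against 3.19%. TATAAA was found in 6 (10.5%) against 15.7% of all genes. These matches are descriptions of letters and do not show binding. Of the 13 genes with the tract at the start, 5 are shown to let the motif be read, with capitals from the annotated start to the end of the pyrimidine run.
Rps6 (chr4:86857348-86857377, minus strand): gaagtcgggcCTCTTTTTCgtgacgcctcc
Rps18 (chr17:33955646-33955675, minus strand): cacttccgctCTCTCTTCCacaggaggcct
Rps15a (chr7:118116128-118116157, minus strand): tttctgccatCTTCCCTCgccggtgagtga
Rplp2 (chr7:141447641-141447670, plus strand): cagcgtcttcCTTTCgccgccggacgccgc
Rpl35a (chr16:33056472-33056501, plus strand): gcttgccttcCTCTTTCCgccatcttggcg
In these 5 genes the tract was 9 bases long in Rps6 and Rps18, 8 in Rps15a and Rpl35a and 5 in Rplp2.

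Levels between genes were compared per length, in the deposited FPKM (fragments scaled to transcript length and library total). Over the 6 libraries the median of the 77 main genes was 229 FPKM, with 229 for the small subunit and 225 for the large one, and 54 of the 77 were among the 500 highest gene symbols. The 5 highest were Rplp1 (657 FPKM), Rplp0 (581 FPKM), Rpl13 (502 FPKM), Rps14 (488 FPKM) and Rpl26 (423 FPKM). Rplp0, Rplp1 and Rplp2 form the stalk of the large subunit, which recruits the GTPases of elongation, and Rplp2 stood far below the other stalk members at 109 FPKM. At the low end of the main genes were Rps28 (31.0 FPKM) and Rpl21 (32.8 FPKM), although for Rpl21 near-identical copies elsewhere in the genome, described further on, held 47.5% to 58.2% of the counts of gene and copies. All 77 main genes had a median above 20 FPKM, and the main genes at the 10th and 90th percentile had 89.7 and 417 FPKM, although the proteins are needed in near equal numbers. FPKM also depends on which annotated transcript took the counts. Rps20, at 49.5 FPKM, had 95.7% of its counts on a transcript of 3706 bases. The part of transcript annotation in the spread of FPKM was not tested.

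**Figure D1:**
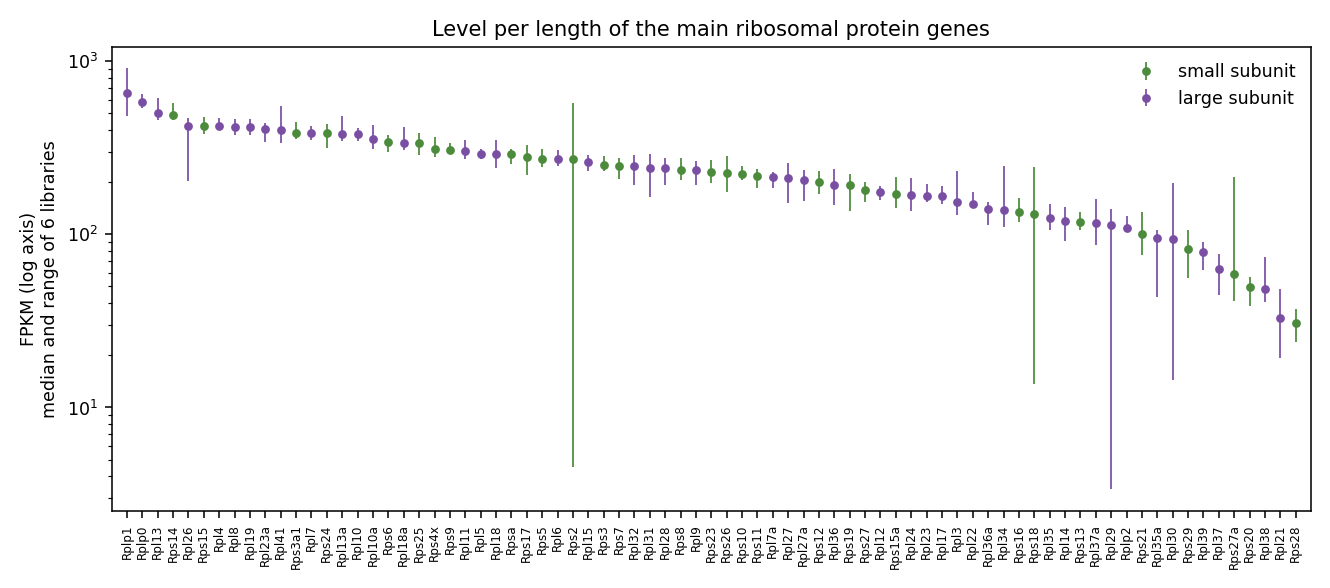
Level per length of the 77 main genes in FPKM on a log axis, ordered by median; points are medians and bars the range over the 6 libraries (green small subunit, purple large subunit). Medians run from 657 FPKM in Rplp1 to 31.0 FPKM in Rps28, and the bars of Rps2, Rps18, Rpl29 and Rpl30 reach far below their median.

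The paralogs were much lower, with 1 exception. Rpl36al, a close relative of Rpl36a, had a median of 183 FPKM, against 140 FPKM for Rpl36a. Rpl7l1, a nucleolar relative of Rpl7, had 30.9 FPKM, and Rpl22l1, the paralog of Rpl22, had 22.1 FPKM against 150 FPKM for Rpl22 itself. Rpl37rt, a retrocopy of Rpl37, had 20.9 FPKM, Rps27rt, a retrocopy of Rps27, had 16.2 FPKM, Rps19bp1 had 15.9 FPKM, Rps4l had 8.45 FPKM and Rpl6l had 5.79 FPKM. Rps3a2 had 1.89 FPKM, Rpl3l, the form of Rpl3 that is typical of heart and skeletal muscle, had 1.05 FPKM, and Rps3a3 had 0.750 FPKM. The remaining 3 of the 14 were not tested for want of counts: Rpl10l, which is known from testis, and Rps12l1 had 0 counts in all 6 libraries, and Rpl39l, also a testis gene, had 1 count in control 1 only. With a floor of 3 counts, 0 counts allow up to 0.187 CPM in cko 2, the shallowest library, and this covers counting error only.

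Between the groups the members showed no change that passed the test. Of the 88 members tested, 0 passed an adjusted p of 0.05 in edgeR's quasi-likelihood test, where 0.0133% of all genes tested did, and the smallest adjusted p among them was 0.999. At an unadjusted p under 0.05 there were 2, Rpl3 and Rps27a, where 3.23% of all genes were. DESeq2 and limma on log2 FPKM also called 0 members. The 3 cko and 3 control values did not overlap in 1 member, Rpl3, against 8.18% of all genes. In bulk tissue, fewer cells of a type and less RNA per cell cannot be told apart, here or in any value that follows.

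The fold changes lay close to 0 and leaned slightly to the negative side. The median log2 fold change of the 88 members, cko over control, was -0.04, against -0.01 for all genes tested. The middle 50% of the members ran from -0.11 to 0.02, 74 of the 88 lay within 0.2 of 0 on the log2 scale, and the median standard error was 0.15. A lower value in cko was seen for 59 members (67.0%), against 51.0% of all genes. Of the main genes, 21 of 31 of the small subunit were below 0 (median -0.05) and 32 of 46 of the large subunit (median -0.04). This lean rests on single libraries: the members' median became 0.03, with 59 members above 0, when cko 3 was left out, and 0.01, with 50 above 0, when control 1 was left out, while without cko 1 it was -0.14, with 15 above 0.

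**Figure D2:**
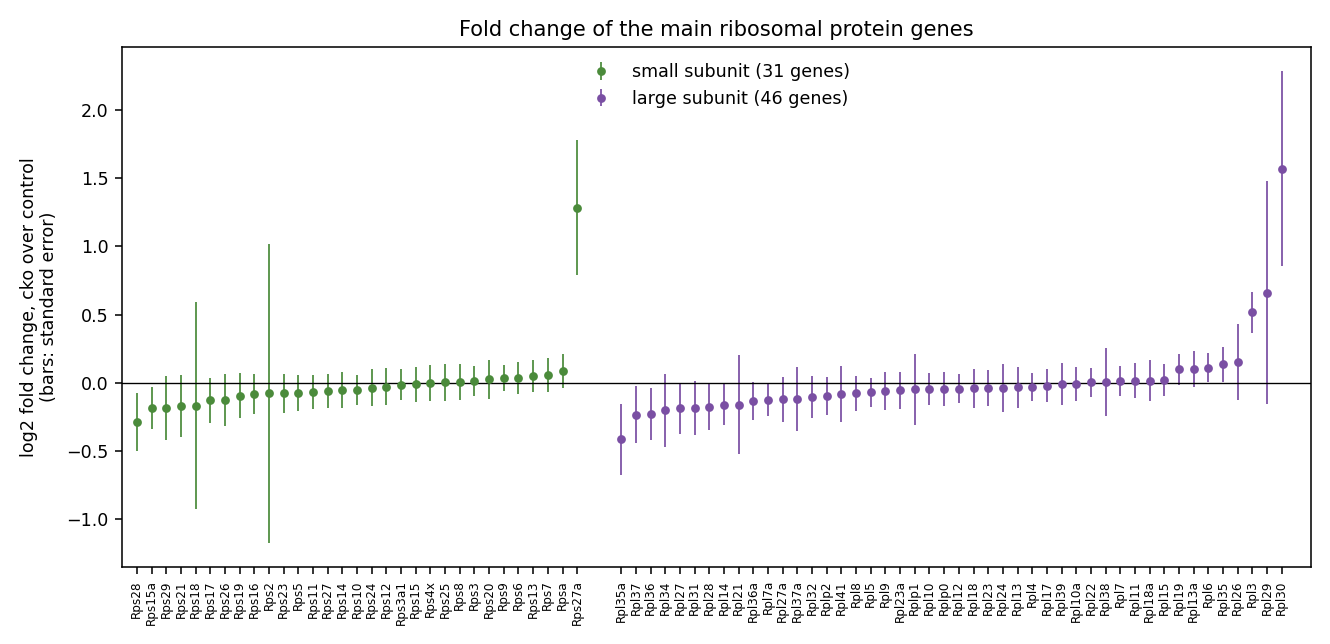
Log2 fold change, cko over control, of the 31 small subunit genes (green, left) and the 46 large subunit genes (purple, right), each ordered by value, with bars of 1 standard error. Most points lie within 0.2 of 0. The far points above 0 are Rps27a (1.28), Rpl3 (0.52), Rpl29 (0.66) and Rpl30 (1.57). The lowest point is Rpl35a (-0.415), and Rps2 and Rps18 have long bars.

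Summed over the 91 members, ribosomal protein mRNA took 1.68%, 1.43% and 1.36% of the counts in cko 1 to 3, against 1.59%, 1.51% and 1.37% in control 1 to 3. Cko 1 was the highest library and cko 3 the lowest, and the groups overlapped over nearly their whole range. The median FPKM of the small subunit genes was 269, 214 and 206 in cko against 248, 238 and 218 in control. For the large subunit it was 253, 209 and 193 in cko against 246, 248 and 210 in control. Both subunits thus put cko 1 highest or near it and cko 3 lowest.

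The stalk genes showed this order at high levels. Rplp0 had 713, 642 and 595 CPM, after TMM scaling (trimmed mean of M values, as in all CPM of single genes here), in cko, against 749, 628 and 634 in control (log2 fold change -0.04, SE 0.13). Rplp1 had 448, 347 and 237 CPM in cko, against 471, 295 and 300 in control (log2 fold change -0.05, SE 0.26). In both genes control 1 and cko 1 were the 2 highest libraries and cko 3 the lowest, and the groups overlapped. Rplp2 had 103, 85.2 and 83.1 in cko, against 113, 85.3 and 91.7 in control (log2 fold change -0.10, SE 0.14).

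Members with roles beyond the ribosome had small differences of either sign. Rpl5 and Rpl11, which with a small ribosomal RNA bind Mdm2 when ribosome assembly fails and so stabilise p53, differed by -0.07 (SE 0.11) and 0.02 (SE 0.13) on the log2 scale. Rpl5 had 381, 338 and 322 CPM in cko, against 372, 367 and 355 in control, and Rpl11 had 225, 176 and 192 in cko, against 212, 177 and 197 in control. The control values of both genes lay within the cko range. Rps6, the main substrate of the S6 kinases downstream of mTORC1, had 330, 268 and 285 CPM in cko, against 305, 289 and 266 in control (log2 fold change 0.04, SE 0.12). Rpsa, which also serves as a laminin receptor, had 531, 516 and 460 in cko, against 540, 431 and 447 in control (log2 fold change 0.09, SE 0.13). Rpl13a, which in human cells leaves the ribosome to silence inflammatory mRNAs, had 376, 300 and 301 in cko, against 340, 285 and 287 in control (log2 fold change 0.10, SE 0.13). In these 3 genes too cko 1 and control 1 were high and the groups overlapped.

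Further members, among them some at core sites of the ribosome or mutated in Diamond-Blackfan anaemia in humans, were as close. Rpl10, which joins the large subunit late and lies near the peptidyl transferase centre, differed by -0.05 (SE 0.12), Rpl22 by 0.00 (SE 0.10) and Rps4x, the X-linked form of Rps4, by 0.00 (SE 0.13) on the log2 scale. Rpl39, a protein of the exit tunnel, differed by -0.01 (SE 0.15), Rps27 by -0.06 (SE 0.12), Rpl36a by -0.13 (SE 0.14) and Rpl41, which encodes a very short peptide, by -0.08 (SE 0.21). Rps19, the gene most often mutated in the anaemia, had 131, 111 and 83.4 CPM in cko, against 127, 112 and 109 in control (log2 fold change -0.09, SE 0.17), with cko 3 the lowest library. Rps24, another gene of the anaemia, had 229, 208 and 167 CPM in cko, against 210, 218 and 192 in control (log2 fold change -0.04, SE 0.13). The gene is known to be spliced in alternative forms near its 3′ end. The deposited values hold 2 transcripts of Rps24. The lesser made up 28.3%, 26.7% and 29.7% of their sum in cko, against 23.2%, 26.1% and 27.7% in control, so the ranges overlapped.

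The 6 members of lowest unadjusted p below 0 were Rpl35a, Rps28, Rps15a, Rpl36, Rpl37 and Rpl7a. Rpl35a, also a gene of Diamond-Blackfan anaemia, had 42.6, 52.7 and 23.6 CPM in cko, against 57.9, 47.5 and 52.7 in control (log2 fold change -0.42, SE 0.26, unadjusted p = 0.146). Its difference rests on cko 3, without which it was -0.15. Rps28 had 13.3, 10.1 and 8.99 in cko, against 14.1, 10.2 and 15.3 in control (log2 fold change -0.29, SE 0.21). The other 4 had log2 fold changes of -0.19 (Rps15a), -0.23 (Rpl36), -0.23 (Rpl37) and -0.13 (Rpl7a), and cko 3 was the lowest library in each of them. Above 0 the 6 of lowest p were Rpl3, Rps27a, Rpl30, Rpl3l, Rps4l and Rpl6l. The paralogs among them had log2 fold changes of 0.80 (SE 0.43) for Rpl3l, at 0.608 to 2.33 CPM, 0.22 (SE 0.17) for Rps4l and 0.34 (SE 0.28) for Rpl6l. Rpl7l1 differed by -0.02, Rpl22l1 by -0.15, Rpl36al by -0.06, Rpl37rt by -0.10, Rps27rt by 0.08 and Rps19bp1 by -0.03, with standard errors of 0.15 to 0.28.

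The main genes moved together from library to library within both groups. Relative to each gene's own mean over the 6 libraries, the median main gene stood at 0.20, -0.05 and -0.19 on the log2 scale in cko 1 to 3 and at 0.15, -0.03 and -0.05 in control 1 to 3. Of the 77 genes, 45 were highest in cko 1 and 25 in control 1, while 50 were lowest in cko 3 and 12 in control 3. The median main gene thus spanned more between cko 1 and cko 3 than between the groups. Across pairs of main genes the mean Pearson correlation over the 6 libraries was 0.56, and 0.65 among the 66 genes with an SD of log2 CPM of at most 0.35. These 66 were chosen by their spread over the same libraries. Without such a filter, the mean correlation was 0.43 for 79 mitochondrial ribosomal protein genes, 0.02 for 76 ribosome biogenesis genes and 0.00 for all genes tested. The genes share these libraries with their depth and scaling, so these correlations describe the 6 libraries only.

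**Figure D3:**
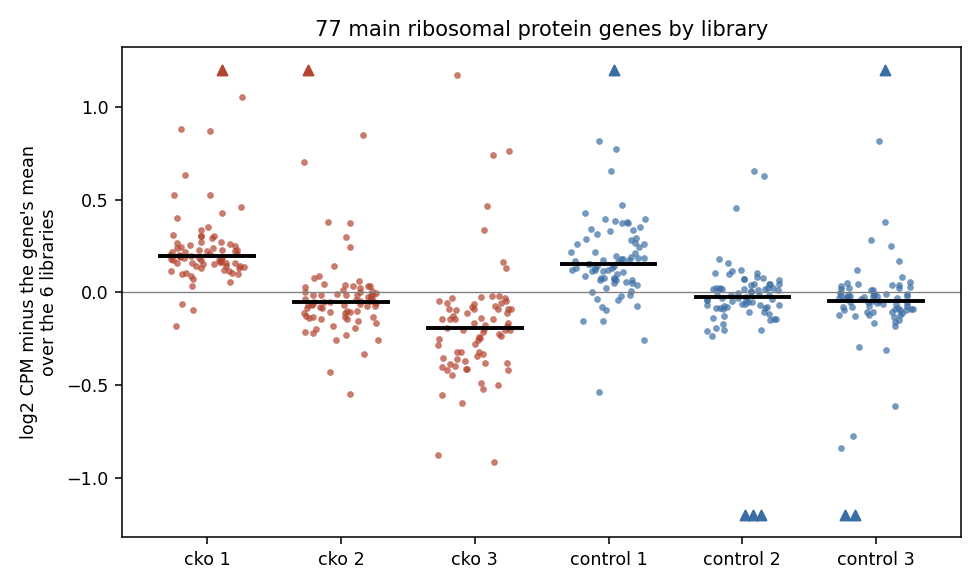
Log2 CPM of each of the 77 main genes minus its own mean over the 6 libraries, by library (red cko, left, blue control, right); black lines are medians, and triangles at the edge are genes farther than the axis shows. The medians are 0.20, -0.05 and -0.19 in cko 1 to 3 and 0.15, -0.03 and -0.05 in control 1 to 3, so the high and low libraries fall in both groups.

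The size of these deviations differed between classes of transcript length. Ribosomal protein mRNAs are short, and the 10 main genes under 500 bases stood at 0.24, -0.08 and -0.38 in cko and 0.28, -0.05 and -0.04 in control, on the same scale. The 15 main genes of 1000 to 3000 bases stood at 0.14, -0.02 and -0.14 in cko and 0.09, 0.00 and -0.03 in control. They too were high in cko 1 and control 1 and lowest in cko 3, with a smaller span. Other genes of 500 to 700 bases (n = 311) stood at 0.15, 0.01 and -0.11 in cko and 0.16, -0.10 and -0.03 in control, and those above 3000 bases (n = 6605) at -0.06, 0.02 and 0.02 in cko and -0.05, 0.08 and 0.02 in control. Other genes under 500 bases (n = 219) stood at 0.00, -0.19 and -0.08 in cko and 0.30, -0.15 and 0.11 in control. Genes of 500 to 700 bases outside the ribosome were thus also high in cko 1 and control 1 and low in cko 3, and those under 500 bases were high in control 1 but not in cko 1. Other genes of 700 to 1000 bases (n = 693) were high in cko 1 and control 1 (0.15 and 0.13). Their lowest library was control 2 (-0.11), with cko 3 at -0.05. Across the 77 main genes the correlation of the deviation with log2 length ranged from -0.16 in control 1 to 0.23 in cko 3. Across 14917 other genes tested it ranged from -0.18 in control 1 to 0.18 in control 2, and was 0.045 in cko 3. The part of length, or of RNA quality, in the ribosomal pattern was not tested further.

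**Figure D4:**
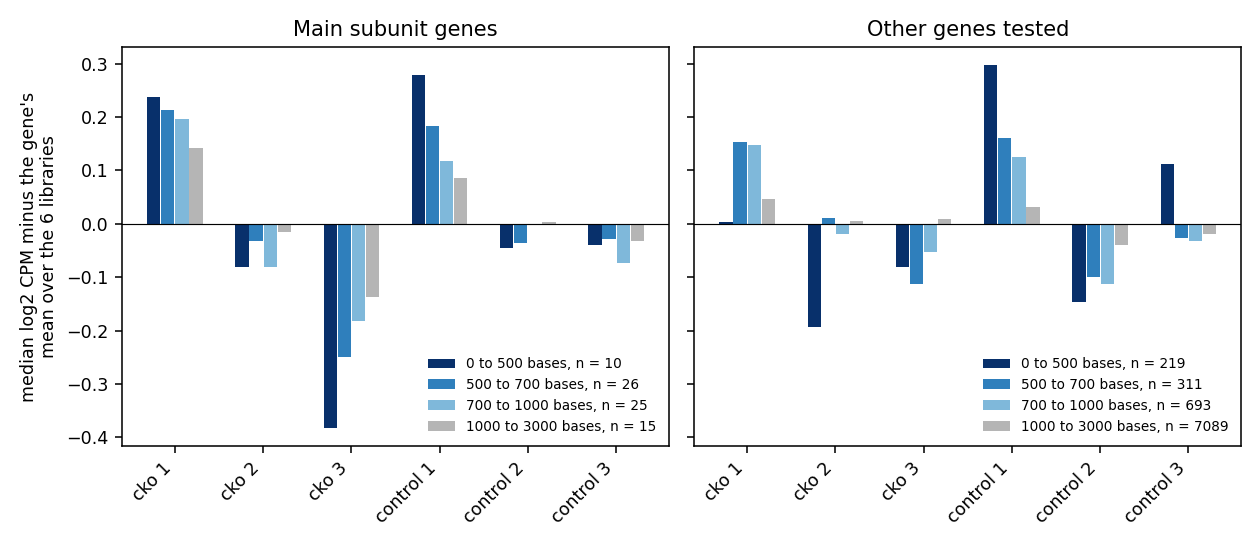
Median log2 CPM minus the gene's mean over the 6 libraries, by library (cko left, control right) and class of transcript length, for main subunit genes (left panel) and other genes tested (right panel). In cko 1, cko 3 and control 1 the bars of main genes under 500 bases (0.24, -0.38 and 0.28) are longer than those of main genes of 1000 to 3000 bases (0.14, -0.14 and 0.09), and other genes of 500 to 1000 bases share their sign.

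Of the cell type markers, those of macrophages summed to 221, 179 and 169 CPM in cko and 138, 170 and 157 in control, with cko 1 the highest library. Of the 12 listed macrophage genes, 12 were above 0 in log2 fold change (median 0.25), where 49.0% of all genes were. In edgeR 1 of the 12 had an unadjusted p under 0.05, where 3.23% of all genes did. The groups did not overlap in 2 of the 12, against 8.18% of all genes. Markers of endothelium summed to 471, 374 and 373 in cko and 423, 499 and 385 in control, and those of fibroblasts and pericytes to 217, 168 and 167 in cko and 230, 237 and 190 in control. Of the 9 fibroblast and pericyte genes 8 were below 0 (median -0.38), where 51.0% of all genes were. Of these 9, 4 had an unadjusted p under 0.05 in edgeR, where 3.23% of all genes did. In 3 of the 9 the groups did not overlap, against 8.18% of all genes. Of the 8 endothelial genes 7 were below 0 (median -0.09). In these 3 lists 0 genes passed the adjusted threshold. T cell markers summed to 9 to 14.0 over the 6 libraries, highest in cko 1 and lowest in control 1. Erythroid markers to 234, 291 and 226 in cko and 313, 306 and 227 in control. Genes of the mitochondrial genome took 3.78% to 4.88% of counts in cko and 4.11% to 4.61% in control, lowest in cko 3 like the ribosomal proteins. Adipose markers summed to 74.7, 47.1 and 55.3 CPM in cko and 95.2, 53.0 and 59.0 in control, and urothelial markers to 13.5, 5.60 and 10.7 in cko and 14.3, 8.98 and 7.01 in control. These last 2 lists, at low levels, put control 1 and cko 1 above the other 4 libraries as the ribosomal proteins did. Their lowest library was cko 2, where that of the ribosomal proteins was cko 3. Podocyte and collecting duct markers were highest in control 2 (535 and 814 CPM), and those of B and plasma cells in control 3 (555 CPM). The part of these cells in the pattern was not tested.

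The members with the largest spread were Rps2, Rpl29, Rpl30, Rps18 and Rps27a, with SDs of log2 CPM over the 6 libraries of 2.59, 1.93, 1.56, 1.49 and 0.97, where the median main gene had 0.18 and the median of all genes tested was 0.21. Each of these 5 has copies elsewhere in the genome that are nearly identical in sequence. A search of transcript sequences (GENCODE M21, at least 95% identity over at least 100 bases and 50% of the shorter transcript) found 314 such copies with counts over all members. Of these, 279 are annotated as processed pseudogenes. The members Rps27rt and Rpl37rt count as copies of Rps27 and Rpl37, and the members Rpl6l, Rps3a2 and Rps3a3 also count as copies. Of the 77 main genes, 72 had at least 1 copy. Rpl21 had the most, 28. The copies held 9.04%, 8.24% and 8.74% of the summed counts of genes and copies in cko and 7.88%, 11.3% and 9.92% in control. The copies were looked for after the spread of these genes had been seen.

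Rps2 encodes a protein at the mRNA entry of the small subunit and had the largest spread of the tested members. The gene (chr17:24718116-24721929, plus strand, GRCm38) had 4932, 4429 and 5715 counts in cko, against 9840, 81 and 4689 in control. The copy Rps2-ps13, a processed pseudogene on chromosome X, had 4387, 4269 and 5311 counts in cko, against 572, 8430 and 4432 in control. The library with the fewest counts on the gene, control 2, had the most on the copy, and control 1 the reverse. With all 21 copies added, Rps2 came to 9928, 8986 and 12333 counts in cko, against 10891, 9569 and 9398 in control, the SD was 0.14, against 2.59 for the gene alone, and the log2 fold change was 0.01 (SE 0.13). Over the 882 coding bases the gene and Rps2-ps13 differ at 7, and the stretch below, the same 60 bases of each transcript, shows how few letters separate them. Capitals mark the mismatches.
Rps2: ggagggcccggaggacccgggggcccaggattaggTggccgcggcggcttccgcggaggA
Rps2-ps13: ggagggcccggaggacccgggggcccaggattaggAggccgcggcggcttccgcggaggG

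Rps18, a protein of the head of the small subunit, had 1491, 1169 and 1425 counts in cko, against 1559, 154 and 2593 in control. Its copy Gm10260 on chromosome 13, annotated as protein coding, had 586, 480 and 636 counts in cko, against 623, 1274 and 0 in control. The gene was low in control 2 where the copy was high, and the copy was at 0 in control 3 where the gene was highest. With its 4 copies Rps18 came to 2310, 1875 and 2301 counts in cko, against 2432, 1985 and 2602 in control, with an SD of 0.25 and a log2 fold change of -0.16 (SE 0.17). The aligned 545 bases hold 5 mismatches, 2 of them in the 60 bases shown, in capitals.
Rps18: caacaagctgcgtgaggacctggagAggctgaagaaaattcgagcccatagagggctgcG
Gm10260: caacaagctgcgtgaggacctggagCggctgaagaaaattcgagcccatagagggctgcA

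Rpl3, a protein close to the peptidyl transferase centre, was the 1 member whose groups did not overlap. It had 200, 277 and 295 CPM in cko, against 179, 187 and 174 in control (log2 fold change 0.52, SE 0.15, unadjusted p = 0.0091, adjusted p = 0.999 in edgeR). Every cko library was higher than every control library, with cko 1 close to the controls. The copy Rpl3-ps1 on chromosome X had 3044, 1576 and 1989 counts in cko, against 3047, 3820 and 3125 in control, and was low in cko 2 and cko 3, where the gene was high. With the 4 copies added, Rpl3 came to 379, 376 and 387 CPM in cko, against 364, 382 and 357 in control, so that the groups overlapped, and the log2 fold change was 0.05 (SE 0.10, unadjusted p = 0.623). The SD over the 6 libraries was 0.04 for the sum and 0.33 for the gene alone. The 1210 aligned bases hold 2 mismatches, 1 of them in the 60 bases shown from the start codon, in capitals.
Rpl3: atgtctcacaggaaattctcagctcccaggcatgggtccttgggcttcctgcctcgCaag
Rpl3-ps1: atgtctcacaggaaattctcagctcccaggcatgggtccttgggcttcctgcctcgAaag

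Rps27a encodes a fusion of ubiquitin with a small subunit protein. It had 89.5, 140 and 26.7 CPM in cko, against 33.8, 42.6 and 28.6 in control (log2 fold change 1.28, SE 0.49, unadjusted p = 0.0316, adjusted p = 0.999 in edgeR). Without cko 2 the log2 fold change was 0.72 (unadjusted p = 0.147) and without cko 3 it was 1.71, and the unadjusted p was also above 0.05 without cko 1, control 1 or control 3. Cko 1 and cko 2 were above the controls and cko 3 below them. Rps27a-ps2 on chromosome 9 had 85, 10 and 1473 counts in cko, against 12, 1297 and 1059 in control, high in 3 libraries where the gene was low. With both copies added, Rps27a came to 103, 142 and 101 CPM in cko, against 44.2, 112 and 97.6 in control (log2 fold change 0.45, SE 0.31, unadjusted p = 0.189), and control 1 remained low. The 467 aligned bases hold 1 mismatch, the capital in the lines below.
Rps27a: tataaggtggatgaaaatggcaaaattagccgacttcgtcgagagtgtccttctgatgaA
Rps27a-ps2: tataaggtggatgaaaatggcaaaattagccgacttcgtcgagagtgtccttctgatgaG

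Rpl34 and Rpl26 also had opposed counts on gene and copy, in other libraries. Rpl34 had 1162, 897 and 2083 counts in cko, against 1221, 2319 and 1054 in control, and Rpl34-ps1 on chromosome 6 had 1024, 797 and 73 in cko, against 1045, 29 and 859 in control. The sums with 3 copies were 2194, 1697 and 2162 in cko, against 2270, 2360 and 1918 in control (SD 0.17, log2 fold change -0.15, SE 0.13). Rpl26, a protein known to bind the mRNA of p53, had 4205, 3477 and 4043 counts in cko, against 4242, 4255 and 1902 in control. Its low library, control 3, was the one in which the copy Gm15772 held 1359 counts, against 108 to 178 in the other 5. With its 4 copies Rpl26 had an SD of 0.20, and the fold change came to -0.02 (SE 0.16) on the log2 scale.

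**Figure D5:**
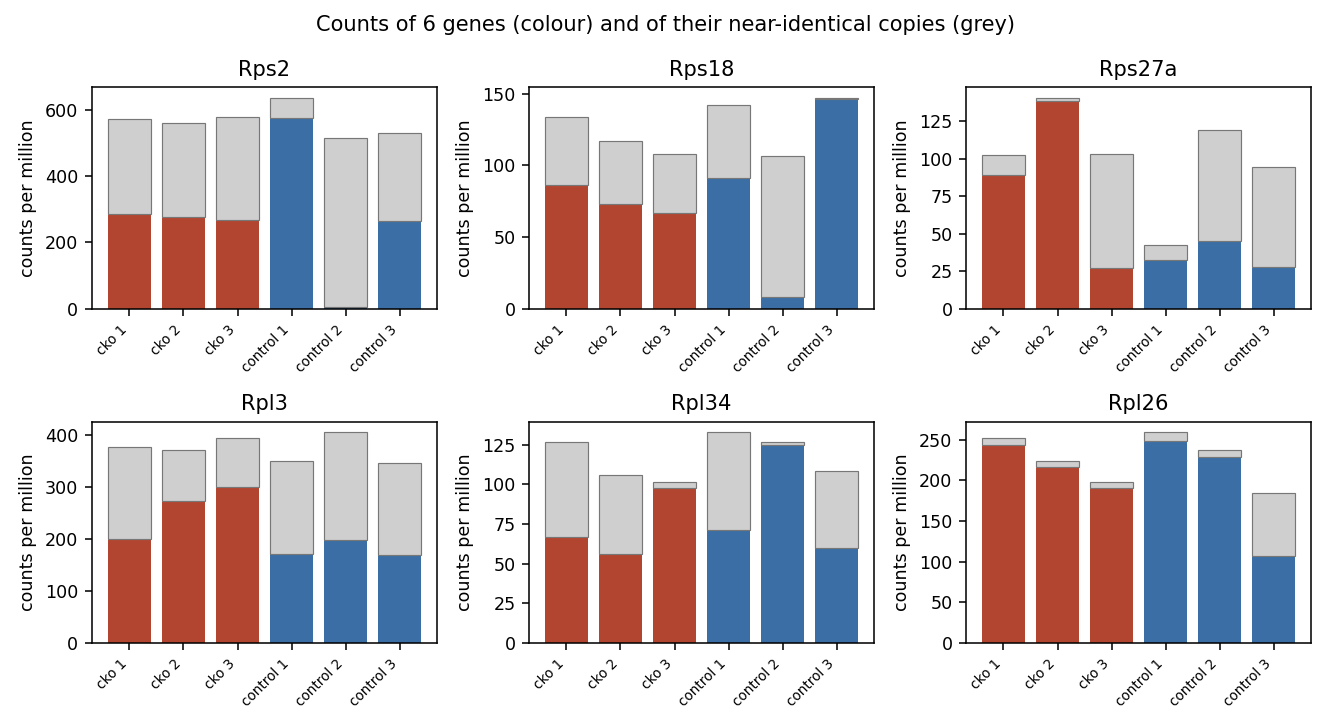
CPM, without TMM scaling, for 6 genes (coloured, red cko on the left and blue control on the right) with the counts of their near-identical copies stacked in grey. In Rps2, Rps18, Rpl3, Rpl34 and Rpl26 the coloured part varies more than the whole bar (SD of log2 CPM of the sum 0.14, 0.25, 0.04, 0.17 and 0.20), while in Rps27a control 1 stays low.

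In Rpl30 and Rpl29 the sum kept part of the spread. Rpl30, a large subunit protein that binds a kink-turn in RNA, had 126, 54.2 and 94.0 CPM in cko, against 71.1, 10.3 and 11.2 in control (log2 fold change 1.57, SE 0.72, unadjusted p = 0.0597, adjusted p = 0.999 in edgeR). Control 1 lay among the cko libraries, and without control 1 the log2 fold change was 3.09, with an adjusted p of 0.174. With 2 copies added it had 126, 63.1 and 94.1 in cko, against 80.5, 27.3 and 28.3 in control (log2 fold change 1.06, SE 0.43, unadjusted p = 0.0397), and the groups still overlapped through control 1. Rpl29 had 1536, 1108 and 1555 counts in cko, against 1246, 1334 and 47 in control, and 2394, 1458 and 1900 in cko against 1777, 1859 and 849 in control with its 10 copies. Control 3 was the low library in both.

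Over the 77 main genes, 11 had an SD of log2 CPM above 0.35 alone and 7 with their copies, and the largest SD went to 0.92 for the sum of Rpl30, against 2.59 for Rps2 alone. The sum was the less variable measure in 33 of the 72 genes with copies, and the median SD was 0.17 with copies and 0.18 without. Adding copies thus altered few genes by much. For Rpl7a it acted the other way: the gene had 3630, 2769 and 3607 counts in cko, against 3454, 3833 and 3394 in control, while its 21 copies had 1809, 484 and 606 in cko, against 1401, 1939 and 1876 in control. The log2 fold change of Rpl7a was -0.13 (SE 0.12) alone and -0.32 (SE 0.18) with copies. With copies added, members that count as copies were no longer tested by themselves, which left 83. Of these, 0 passed an adjusted p of 0.05 in edgeR, where 0.0134% of genes tested did, and their median log2 fold change was -0.04. Whether reads were assigned to the wrong one of the gene and its copies was not tested, since the sources used here do not name the program that made the estimates.

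The other genes of the translation machinery were read from the same fit. Of 16 translation factors whose mRNAs are of the TOP type, 9 were above 0 and 7 below, with a median of 0.03 and 0 past either threshold, but without cko 1 the median was -0.04 with 6 above 0, and without control 2 it was 0.00 with 8 above 0. Eef1a1, which brings aminoacyl-tRNA to the ribosome, differed by -0.04 (SE 0.12), Eef2, the translocase, by -0.11 (SE 0.12), Tpt1 by -0.10 (SE 0.14) and Rack1, which sits on the small subunit, by -0.07 (SE 0.11). As a group these factors stood at 0.06, -0.05 and -0.01 in cko and 0.01, -0.06 and 0.02 in control relative to each gene's mean, a far smaller span than that of the ribosomal proteins. The 8 non-coding host genes of snoRNAs, also of the TOP type, had a median log2 fold change of -0.05 and stood at 0.27, -0.08 and -0.19 in cko and 0.06, 0.14 and -0.10 in control, with the most abundant, Gas5, at -0.08 (SE 0.12). Their median was -0.24 with 0 of 8 above 0 without cko 1, and 0.02 without cko 2 or without cko 3.

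Genes that build ribosomes had no common lean. Of 76 biogenesis genes, 40 were above 0 and 36 below, with a median log2 fold change of 0.00, 0 past the adjusted threshold and 2, Noc3l (-0.42) and Rpf2 (0.41), at an unadjusted p under 0.05, where 3.23% of all genes were. The nucleolar genes Ncl and Npm1 differed by 0.14 (SE 0.13) and 0.06 (SE 0.09), Ubtf, a factor of RNA polymerase I, by -0.03 (SE 0.10), and Rrp1 by 0.00 (SE 0.09). Groups did not overlap in 9 of the 76, against 8.18% of all genes. Of 33 initiation factors, 24 were above 0, with a median of 0.07 and 0 called, but without control 2 the median was 0.00 and 17 were above 0, and without cko 2 the median was 0.03. Of these, Eif4g2 differed by 0.10 (SE 0.12), Eif4g1 by -0.02 (SE 0.12), Eif4a2 by 0.00 (SE 0.10) and Eif5a by 0.09 (SE 0.13). Of 23 tested genes of mTORC1 and Myc control, 12 were above 0 and 11 below (median 0.02), with Mtor at 0.15 (SE 0.14), Larp1 at 0.02 (SE 0.11), Eif4ebp2 at -0.02 (SE 0.11) and Mxd4 at -0.11 (SE 0.09). The median of this list was 0.06, with 17 above 0, without cko 1, and 0.10, with 14 above 0, without control 3, but -0.03, with 10 above 0, without cko 3.

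The ribosomal proteins of the mitochondrion, encoded in the nucleus and used for the mitochondrial genome's own mRNAs, leaned to the other side. Of 79 tested, 63 had a log2 fold change above 0, against 49.0% of all genes, with a median of 0.06, 0 past the adjusted threshold and 1, Mrpl46 (0.28), at an unadjusted p under 0.05, where 3.23% of all genes were. The groups did not overlap in 5 of the 79, against 8.18% of all genes. Mrpl12, the most abundant, had 211, 178 and 170 CPM in cko, against 211, 141 and 170 in control (log2 fold change 0.10, SE 0.16), and Mrpl4 had 108, 98.3 and 102 in cko, against 98.9, 77.6 and 85.1 in control (log2 fold change 0.23, SE 0.12). Mrpl50 differed by 0.09 (SE 0.10) and Mrps6 by -0.06 (SE 0.16). In Mrpl12 and Mrpl4 control 2 was the lowest library and cko 1 the highest. The median mitochondrial gene stood at 0.13, 0.04 and -0.05 in cko and 0.09, -0.16 and -0.04 in control relative to its own mean. Without control 2 the median log2 fold change was 0.00 with 41 of 79 above 0, and without cko 1 it was 0.01 with 43 above 0. It was 0.12 without control 1 and 0.11 without cko 3, each with 71 above 0, so the size of this lean also depends on single libraries. The difference between the cytosolic and the mitochondrial proteins was not tested.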

How the data were processed

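RNA of 6 mouse kidney libraries, 3 cko and 3 control, was analysed from 1 deposited table of 128603 transcripts. It holds estimated counts per transcript and FPKM, both as deposited by the authors, and per the file headers each pair of columns belongs to 1 library. FPKM values of 10 or more equalled the count over column total and GENCODE exonic length within 1% in 93.8% of 41135 values. The submitters' processing notes name HISAT2 2.0.1, Cuffdiff 2.2.1, cutadapt 1.9.1 and GRCm38 without their roles. The sources used here do not say how reads with several matches were assigned or whether strand was used.

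Estimated counts were summed per gene symbol and rounded to integers. edgeR 4.0.16 (quasi-likelihood, TMM, filterByExpr with a minimum count of 10, group as the only term, Benjamini-Hochberg over 15017 genes), in R 4.3.3 gave the main test. DESeq2 1.42.0, limma 3.58.1 on log2(FPKM + 1) and log2(FPKM + 0.1), other scalings, no filter, -ps pseudogenes added to the parent gene, a replicate block and each library left out were alternatives. Near-identical copies (blastn 2.17.0) were added as an alternative after the data had been seen. The model code was tested on simulated counts. Depth, 16061435 to 21261226 counts per library, limits the paralogs with few counts.

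Members, lists and tests were chosen with earlier results of these data known. Named genes are any member called, the 6 of lowest p in each direction, the 5 highest and 5 lowest per length, the 5 of largest SD, the paralogs and members with known roles, and up to 4 of the most abundant genes of each other list printed. 1 short list is not reported here. Rpl34, Rpl21, Rps20, Rpl37rt and genes at an unadjusted p under 0.05 were named after their values were seen. FPKM of a gene is the sum over its transcripts. Sequences are from RefSeq (GRCm38.p6) and GENCODE M21 (GRCm38).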

Additional observations from a re-analysis of the deposited data

How the results depend on the processing

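The number of members past an adjusted p of 0.05 was 0 under each of the 13 alternatives and with each library left out, so no other setting adds a call. Genes called over the whole table numbered 2 in the edgeR fit, 1 with library totals only, 5 without a filter on low counts, 15 with DESeq2, 1 with limma on log2(FPKM + 1) and 1 on log2(FPKM + 0.1), and 1 to 6 with a library left out. The members' median log2 fold change was -0.04 in the main fit and -0.05 to -0.04 under the other scalings, tools and sums. It ran from -0.14 without cko 1 to 0.03 without cko 3, and was 0.01 without control 1. Over all genes tested, deviations of libraries with equal replicate numbers correlated at 0.09, -0.09 and 0.12, beside -0.17 to 0.08 for the other pairs. The median main gene, however, was highest within each group in the library numbered 1 (0.195 in cko, 0.151 in control). It was lowest within each group in the library numbered 3 (-0.192 and -0.045). Whether equal numbers mark a shared batch was not tested. With the replicate block, 2 genes and 0 members were called, 4 members had an unadjusted p under 0.05, and the members' median was -0.04. The members' share of control 2 was 1.63% with -ps pseudogenes added, against 1.51% without, a move larger than the control libraries' SD. For 42 named members, 9 of 742 alternative values moved by more than 1 SD between replicates, in Rpl3, Rpl7a and Rpl30, 63 had the opposite sign to a main value, and 0 passed the threshold. With 3 libraries a group and a median SE of 0.15, small shifts of single members cannot be seen.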
